A study of Rattus norvegicus with 24 samples.

Results

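The genes described are 10 angiogenic ligands, receptors and hypoxia regulators of the rat retina, chosen by name: Pgf, Vegfb, Kdr, Flt1, Nrp1, Tek, Pdgfa, Pdgfrb, Hif1a and Epas1. A probe was assigned to one of them when its RefSeq accession carried that symbol. This gave 13 probes for 7 of the 10 genes, of 4013 genes with a named probe on the array. Vegfb, Tek and Epas1 had no probe named in this way and were not analysed here. Retinas came from male Sprague Dawley rats, a non-inbred stock. The rats had received streptozotocin (STZ), which kills the insulin-producing beta cells, or its vehicle as control, and no insulin was given. The 4 groups were 1M Control, 1M STZ, 3M Control and 3M STZ, for harvest 1 or 3 months after the injection, with 6 arrays in each. The submitters call these biological replicates, while the study's table of animals lists fewer 1 month control rats than there are 1M Control arrays. Which array this concerns is not said, and all arrays were used. The animals of each time point were raised and harvested separately, so time and batch cannot be told apart.

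Blood vessels grow when endothelial cells receive signals from ligands of the vascular endothelial growth factor family. Kdr (VEGF receptor 2) passes on most of that signal, Flt1 (VEGF receptor 1) binds the ligands tightly and in its soluble form sequesters them, and Nrp1 is a co-receptor. Platelet-derived growth factors recruit the pericytes that wrap capillaries, and loss of pericytes is an early lesion of the diabetic retina. When oxygen is low, the transcription factor subunits Hif1a and Epas1 escape degradation and switch on many of these genes. That control acts largely on the protein, which an mRNA array does not measure.

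Values are scaled intensities, meaning the background-subtracted spot brightness divided by the median of the rat probes on the same array. Differences between STZ and control are log2 fold changes with their standard error (SE) from limma, which fits a linear model to each probe and moderates its variance. Calls required a difference of at least 1.2-fold and an adjusted p (Benjamini-Hochberg, over all 22025 tested probes) under 0.05. Of the 13 probes, 9 were bright enough to be tested, with a median scaled intensity over the 24 arrays above 0.554, and each of the 7 genes had at least 1 of them. The other 4, both dimmer Kdr probes, the dimmer Flt1 probe and the dimmer Pdgfrb probe, are given from a fit without the filter on dim probes. Many values were near background, for which the 62 probes for bacterial genes give a scale. The 95th percentile of those probes lay between 0.632 and 1.72 on the 24 arrays.

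The arrays of the 3 month groups differed as a whole. Over all tested probes the change had a median of 0.44 at 3 months, so a probe at 0.44 moved with the bulk of the array, and 0.01 at 1 month. After quantile normalization the median at 3 months was 0.16. The interquartile range of log2 values, a measure of array spread, had a median of 1.81 in 3M Control, 2.50 in 3M STZ and 3.47 in both 1 month groups. It lay between 1.48 and 2.23 in 3M Control and between 2.07 and 2.70 in 3M STZ, so it went largely with the group. Fits with spread as a covariate therefore cannot separate spread from diabetes at 3 months. Calls lost or signs changed in them do not show that a difference is absent. The 3M Control replicate 2 stood apart, with a median correlation of 0.842 with its group against 0.957 to 0.973 for the other 3M Control arrays. To a lesser degree 3M STZ replicate 1 did too, at 0.916 against 0.967 to 0.976 for the other 3M STZ arrays. 1M Control replicate 5 was at 0.92 against 0.96 to 0.98. The retinal origin of the RNA was visible in 5 measured rod photoreceptor genes, whose summed scaled intensity lay between 159 and 446 on every array.

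The promoters of these genes are the regions through which hypoxia regulators could act. RefSeq promoters of build GRCr8 were given for 6 of the 7 measured genes. The 250 bases before the transcript start were searched on both strands for the core letters of the hypoxia response element, ACGTG and GCGTG. A core was present in 36.7% of all 33469 promoters of the same length. The GC content had a median of 51.2% over those promoters and lay between 60.8 and 73.6% in the 6 measured genes, and its part in the count of cores was not tested. A core was present in 5 of the 6, Kdr, Flt1, Pgf, Nrp1 and Hif1a, and not in Pdgfa. Kdr had GCGTG at 145 and at 103 bases upstream, Pgf had GCGTG on the opposite strand at 154 bases, Flt1 on the opposite strand at 227 bases and Nrp1 on the opposite strand at 158 bases. Hif1a had ACGTG at 228 and 164 bases, and on the opposite strand at 229 bases, where it overlaps the first. A match of 5 letters is a description of the sequence and not a bound site. Shown are the promoters of the genes with a called probe at 3 months, as far as the stretch lies outside every annotated transcript of the gene. They run 5′ to 3′ along the gene's strand with the core, as it reads on that strand, in capitals. The searched Kdr stretch ends at 32572062, past the gene start at 32572031, so only its first 218 bases are shown. The positions of the Kdr cores are counted from the end of the searched stretch. Kdr lies on the plus strand at chr14:32571813-32572030, Pgf on the minus strand at chr6:110557748-110557997 and Pdgfa on the plus strand at chr12:20759116-20759365.
Kdr: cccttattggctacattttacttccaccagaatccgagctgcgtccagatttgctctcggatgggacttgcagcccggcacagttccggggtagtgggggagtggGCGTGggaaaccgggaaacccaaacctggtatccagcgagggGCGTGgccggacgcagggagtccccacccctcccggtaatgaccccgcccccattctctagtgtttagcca
Pgf: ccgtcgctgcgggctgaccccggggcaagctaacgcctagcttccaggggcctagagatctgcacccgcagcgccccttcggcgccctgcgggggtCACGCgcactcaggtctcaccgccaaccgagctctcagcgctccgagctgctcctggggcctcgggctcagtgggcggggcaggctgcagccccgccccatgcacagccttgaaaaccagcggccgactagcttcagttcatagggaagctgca
Pdgfa: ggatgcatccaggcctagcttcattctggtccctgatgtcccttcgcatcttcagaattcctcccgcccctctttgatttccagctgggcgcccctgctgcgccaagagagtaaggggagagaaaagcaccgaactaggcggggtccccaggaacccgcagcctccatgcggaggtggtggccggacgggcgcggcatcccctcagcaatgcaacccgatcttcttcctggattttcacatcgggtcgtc

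At 1 month no member was called between STZ and control. Of the 9 tested probes 0 were called, and 0 had an unadjusted p under 0.05. Of all tested probes 2 were called (0.00908%), and 927 had an unadjusted p under 0.05. At 3 months 4 of the 9 probes were called, 1 each for Pdgfa, Kdr, Pgf and Flt1, and all 4 were higher in STZ retinas. That count is close to the background, since 54.1% of all tested probes were called, 50.5% as higher and 3.55% as lower. Only 3 of the 9 probes, for Pdgfa, Kdr and Pgf, lay above the median change of all probes, and the median of the 9 was 0.41.

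**Figure D1:**
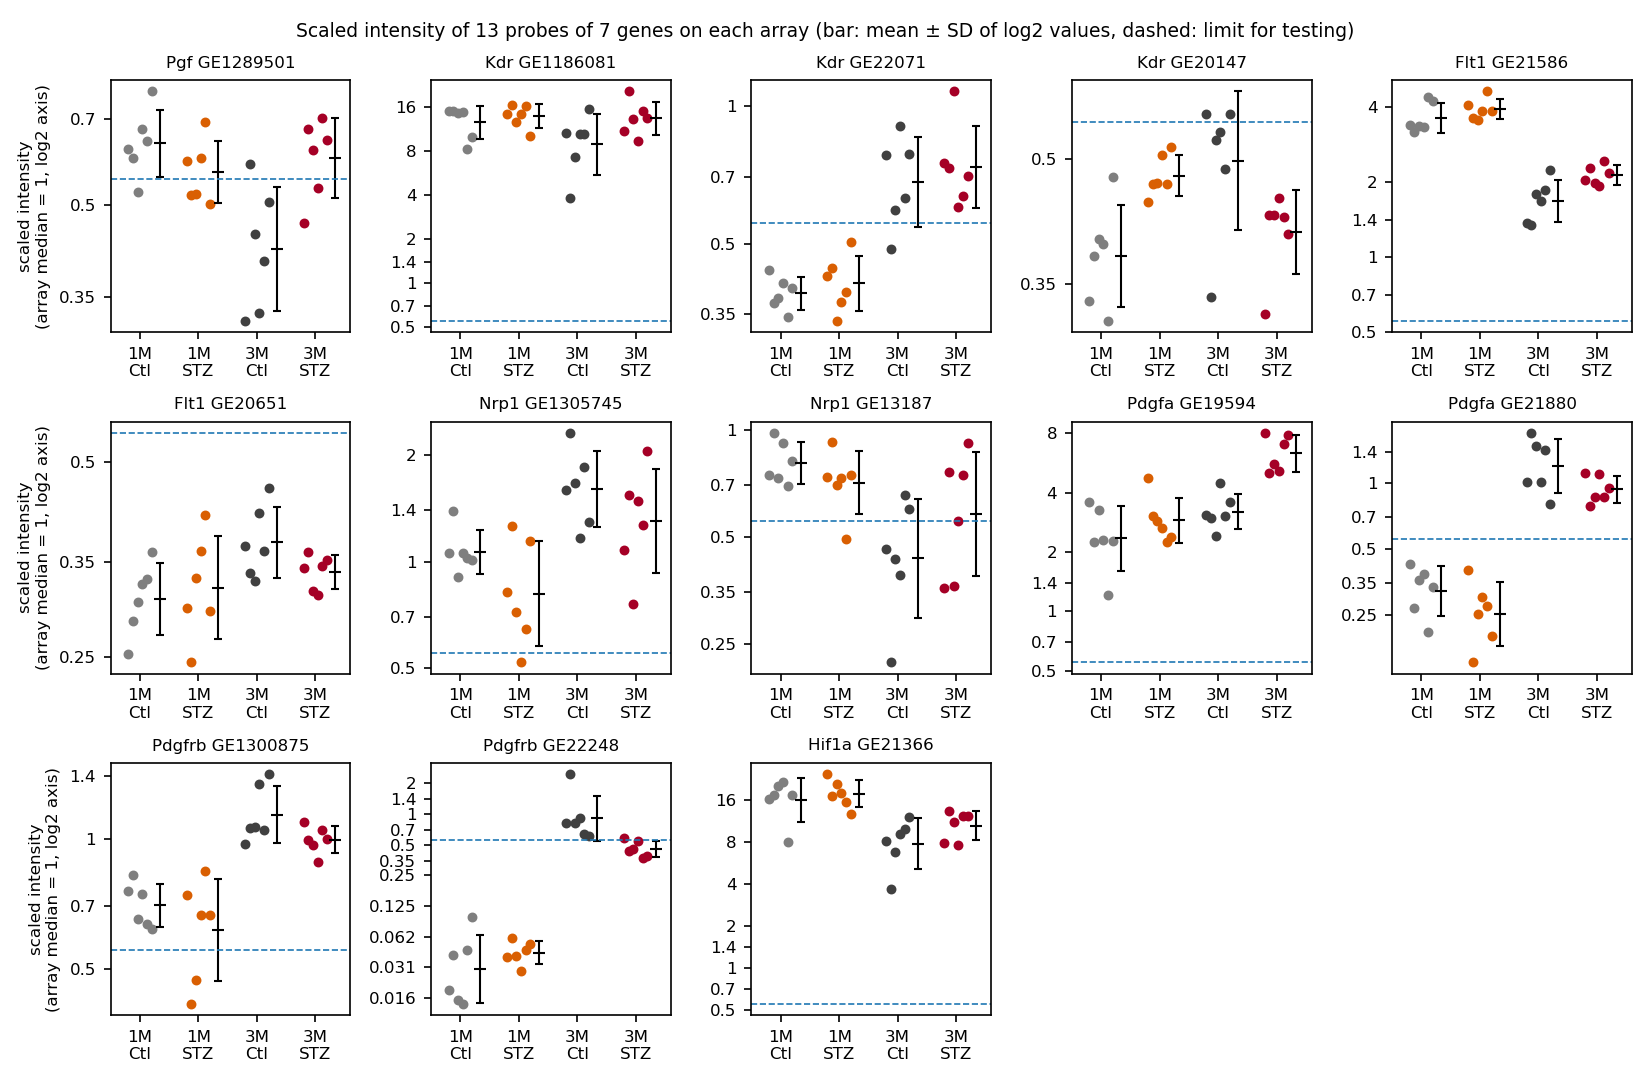
Scaled intensity of the 13 probes on each of the 24 arrays, with a separate log2 axis for each probe. Points are arrays, the bar gives the mean and SD of the 6 log2 values of a group, and the dashed line is the limit for testing at 0.554. The bright Pdgfa probe is the tested probe whose 3M STZ arrays, from 5.01 to 8.02, all lie above the 3M Control arrays, from 2.41 to 4.46.

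Pdgfa encodes the A chain of platelet-derived growth factor, which in the retina is made by neurons and attracts astrocytes. Its brighter probe, GE19594, lay between 2.41 and 4.46 (median 3.06) in 3M Control and between 5.01 and 8.02 (median 6.32) in 3M STZ. The groups did not overlap, which was so for 10.2% of all tested probes. It rose by 0.98 on the log2 scale (SE 0.22, 1.98-fold, limma adjusted p = 0.00116), 0.54 above the median of all probes and at their 95.4th percentile. It was called in each of the 24 fits that left out 1 array, with changes from 0.90 to 1.08. After quantile normalization the change was 0.46 and was not called (adjusted p = 0.0686). With array spread as a covariate, which went largely with the group, it was 0.29 with a larger SE of 0.315 (adjusted p = 0.774). At 1 month the same probe lay between 1.21 and 3.57 (median 2.29) in controls and between 2.25 and 4.72 (median 2.75) in STZ, overlapping groups with a difference of 0.30 (SE 0.22, adjusted p = 0.9999). Without 1M Control replicate 5 that difference was 0.11.

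The dimmer Pdgfa probe, GE21880, did not follow. It lay between 0.807 and 1.70 (median 1.22) in 3M Control and between 0.787 and 1.12 (median 0.914) in 3M STZ. The difference was -0.35 (SE 0.21, adjusted p = 0.159, 95% interval -0.78 to 0.09), at the 5.69th percentile of all probes. The probe was called lower in 1 of 13 alternatives, with array weights (-0.43, limma adjusted p = 0.0312). It exceeded the bacterial percentile on 3 controls and 0 STZ arrays at 3 months. At 1 month it was below the limit for testing on all 12 arrays, between 0.152 and 0.428, with a difference of -0.35 (SE 0.21).

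Pgf encodes placental growth factor, a ligand of Flt1 that does not bind Kdr. Its single probe, GE1289501, was dim and lay between 0.319 and 0.588 (median 0.425) in 3M Control and between 0.466 and 0.703 (median 0.633) in 3M STZ. The groups overlapped, and none of the 12 arrays reached its own 95th percentile of the bacterial probes. The probe rose by 0.51 (SE 0.15, 1.43-fold, limma adjusted p = 0.00826), 0.07 above the median of all probes. At 1 month it lay between 0.526 and 0.779 (median 0.631) in controls and between 0.503 and 0.692 (median 0.559) in STZ, a difference of -0.16 (SE 0.15). The size of the 3 month change depended on scaling, at 1.33 after quantile normalization (adjusted p = 5.4e-04) and 2.53 after each array's 5th percentile was subtracted, with the direction kept. With brightness or spread of the array as a covariate the probe was not called, at adjusted p = 0.0659 and 0.672.

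Kdr encodes the main signaling receptor for VEGF on endothelial cells and is also expressed by retinal progenitors and some neurons. The probe GE1186081 lay between 3.80 and 15.5 (median 10.6) in 3M Control and between 9.47 and 20.5 (median 13.4) in 3M STZ. The groups overlapped, and the lowest array was 3M Control replicate 2. The probe rose by 0.59 (SE 0.24, limma adjusted p = 0.0451), 0.14 above the median of all probes. Without 3M Control replicate 2 the change was 0.34 and was not called, and the call was also lost without 3M Control replicate 3 or without 3M STZ replicate 2, 3, 5 or 6. After quantile normalization the difference was 0.01 (adjusted p = 0.974), and with array spread as a covariate it turned to -0.25. At 1 month the probe lay between 8.29 and 15.1 (median 14.8) in controls and between 10.1 and 16.7 (median 14.4) in STZ, with a difference of 0.14 (SE 0.24). Without 1M Control replicate 5 that difference was 0.02.

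Flt1, the receptor that Pgf binds, showed a smaller change. Its brighter probe, GE21586, lay between 1.34 and 2.22 (median 1.72) in 3M Control and between 1.92 and 2.43 (median 2.10) in 3M STZ, with overlap. It rose by 0.34 (SE 0.13, 1.27-fold, limma adjusted p = 0.0347), which is 0.10 under the median of all probes. Without 3M Control replicate 1 or 2, or 3M STZ replicate 2, 5 or 6, it was not called, with changes from 0.28 to 0.42 over the 24 fits. After quantile normalization it was 0.03 (adjusted p = 0.882). At 1 month it lay between 3.17 and 4.36 (median 3.36) in controls and between 3.55 and 4.61 (median 3.86) in STZ, a difference of 0.12 (SE 0.13).

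The 6 arrays of each 1 month group lay above all 12 arrays of the 3 month groups for this Flt1 probe. From highest to lowest mean log2 level the groups were 1M STZ (1.97 ± 0.14, SD, n = 6), 1M Control (1.85 ± 0.20), 3M STZ (1.09 ± 0.13) and 3M Control (0.75 ± 0.28). The 2 groups within a time point overlapped, and levels between time points were not tested. The share of all probes that separate in this way was not counted, and array spread differed between the time points. Pdgfa GE21880 and both Pdgfrb probes separated the other way. Pdgfa GE21880 was at most 0.428 at 1 month and at least 0.787 at 3 months.

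Nrp1, co-receptor for VEGF and for the axon guidance ligand Sema3a, had 2 tested probes with opposite signs at 3 months. The probe GE1305745 lay between 1.17 and 2.32 (median 1.63) in 3M Control and between 0.762 and 2.06 (median 1.38) in 3M STZ, a difference of -0.30 (SE 0.22, adjusted p = 0.239, 95% interval -0.75 to 0.15). The probe GE13187 lay between 0.222 and 0.658 (median 0.448) in 3M Control and between 0.360 and 0.923 (median 0.653) in 3M STZ, a difference of 0.41 (SE 0.24, adjusted p = 0.134, 95% interval -0.07 to 0.90). Groups overlapped for both. GE13187 exceeded the bacterial percentile on 0 arrays of either 3 month group, and the limit for testing on 2 controls and 4 STZ arrays. GE1305745 exceeded that percentile on 4 controls and 3 STZ arrays. The opposite signs thus set a probe near background against a brighter one. Without 3M Control replicate 2 the differences were -0.20 for GE1305745 and 0.22 for GE13187. GE1305745 was at -0.15 without 3M STZ replicate 3, and GE13187 was called at 0.55 without 3M STZ replicate 1. After quantile normalization GE1305745 was called lower (-0.67, adjusted p = 0.0353), GE13187 was at 0.94 (adjusted p = 0.0619), and with array spread as a covariate GE13187 turned to -0.18. At 1 month both differences were negative, -0.39 (SE 0.22) for GE1305745 and -0.19 (SE 0.24) for GE13187.

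Pdgfrb encodes the receptor by which pericytes sense platelet-derived growth factor B. Its tested probe, GE1300875, lay between 0.973 and 1.41 (median 1.06) in 3M Control and between 0.885 and 1.09 (median 0.997) in 3M STZ. The difference was -0.19 (SE 0.15, adjusted p = 0.278, 95% interval -0.51 to 0.12), ranking at the 9.88th percentile, with the same sign under every alternative in which it was tested. The probe exceeded the bacterial percentile on 1 control and 0 STZ arrays at 3 months. At 1 month the difference was also -0.19 (SE 0.15), with values between 0.621 and 0.826 (median 0.699) in controls and between 0.417 and 0.841 (median 0.668) in STZ. Without 1M STZ replicate 2 that difference was -0.08.

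Hif1a encodes the oxygen-labile subunit of hypoxia-inducible factor 1. Its probe, GE21366, exceeded that bacterial percentile on all 24 arrays. It lay between 3.65 and 12.2 (median 8.60) in 3M Control and between 7.55 and 13.4 (median 11.7) in 3M STZ, with overlap. The difference was 0.43 (SE 0.25, adjusted p = 0.135, 95% interval -0.07 to 0.94), 0.01 under the median of all probes, and not called. It turned to -0.13 after quantile normalization and to -0.40 with array spread as a covariate. The lowest array was again 3M Control replicate 2, and without it the difference was 0.21. At 1 month Hif1a lay between 7.97 and 21.7 (median 17.3) in controls and between 12.7 and 24.4 (median 17.6) in STZ, a difference of 0.15 (SE 0.25) that turned to -0.05 without 1M Control replicate 5.

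**Figure D2:**
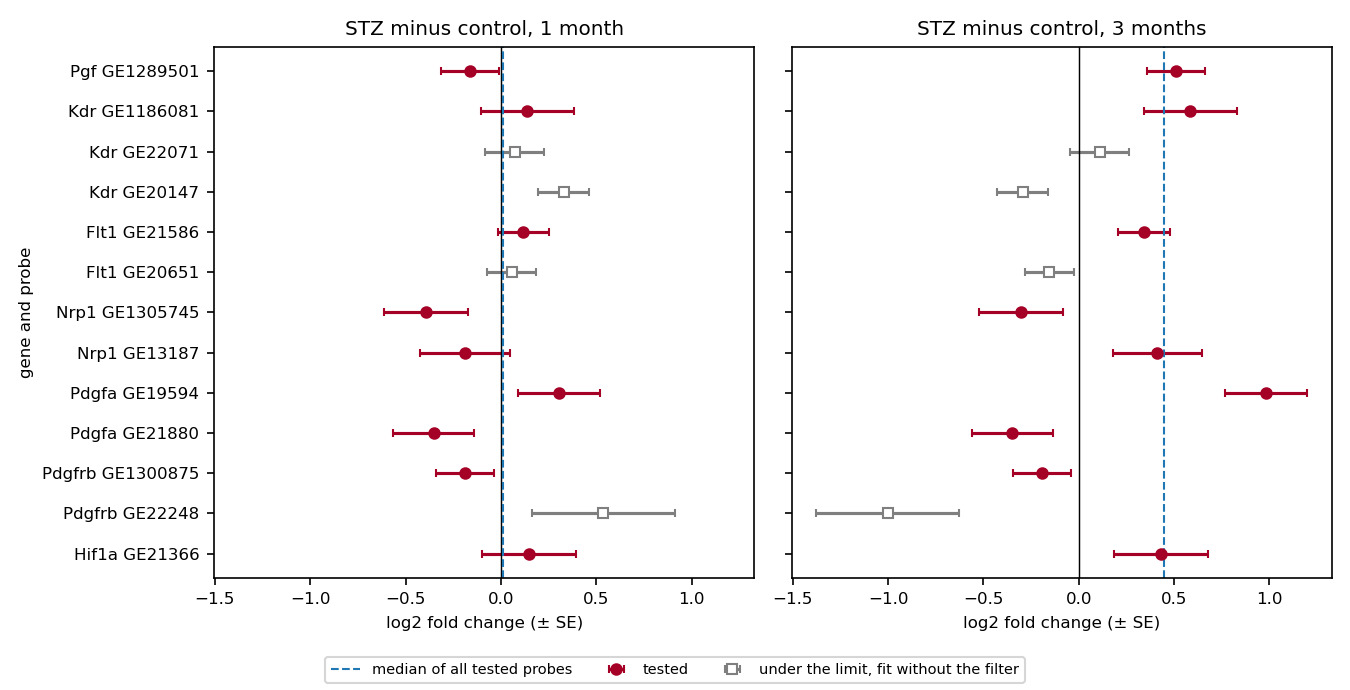
Log2 fold change (STZ minus control, with SE) of each probe at 1 month and at 3 months. Filled circles are the 9 tested probes, open squares the 4 dim probes from the fit without the filter, and the dashed line is the median of all tested probes, 0.01 at 1 month and 0.44 at 3 months. The bright Pdgfa probe lies farthest to the right of that line at 3 months.

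None of the 4 dim probes was called higher at 3 months. The Pdgfrb probe GE22248 lay between 0.605 and 2.45 (median 0.816) in 3M Control and between 0.370 and 0.585 (median 0.446) in 3M STZ. The groups did not overlap, also without 3M Control replicate 2, its brightest array (difference then -0.72), and 9.90% of the 33849 rat probes without the filter did not overlap either. The probe exceeded the bacterial percentile on 1 of the 12 arrays, which was a control. In the fit without the filter it fell by 1.00 (SE 0.38, limma adjusted p = 0.0331), where 46.3% of 33849 probes were called. At 1 month the same probe was between 0.0138 and 0.0972 on all 12 arrays.

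The Kdr probe GE20147 lay between 0.338 and 0.568 (median 0.533) in 3M Control and between 0.321 and 0.447 (median 0.424) in 3M STZ, a difference of -0.29 (SE 0.13, adjusted p = 0.0734). At 1 month it lay between 0.315 and 0.475 (median 0.386) in controls and between 0.442 and 0.517 (median 0.466) in STZ, a difference of 0.33 (SE 0.13, adjusted p = 0.844). The difference between its 3 month and 1 month effects was -0.62 (SE 0.19, limma adjusted p = 0.0426) in the fit without the filter, in which 10.3% of all probes were called. The Kdr probe GE22071 differed by 0.11 (SE 0.15) and the Flt1 probe GE20651 by -0.15 (SE 0.13) at 3 months. These 3 probes were below the 95th percentile of the bacterial probes on all 24 arrays.

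The difference between the 3 month and the 1 month effect was called for 1 of the 9 probes, against 15.5% of all tested probes. The probe was that of Pgf, at 0.67 (SE 0.22, limma adjusted p = 0.0394), from -0.16 at 1 month to 0.51 at 3 months. The call was lost in 13 of the 24 fits without 1 array, where the difference ranged from 0.59 to 0.77. For the bright Pdgfa probe the difference was 0.68 (SE 0.31, adjusted p = 0.101), for Kdr 0.45 (SE 0.35, adjusted p = 0.310), for Hif1a 0.29 (SE 0.35, adjusted p = 0.525) and for Flt1 0.22 (SE 0.19, adjusted p = 0.356).

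**Figure D3:**
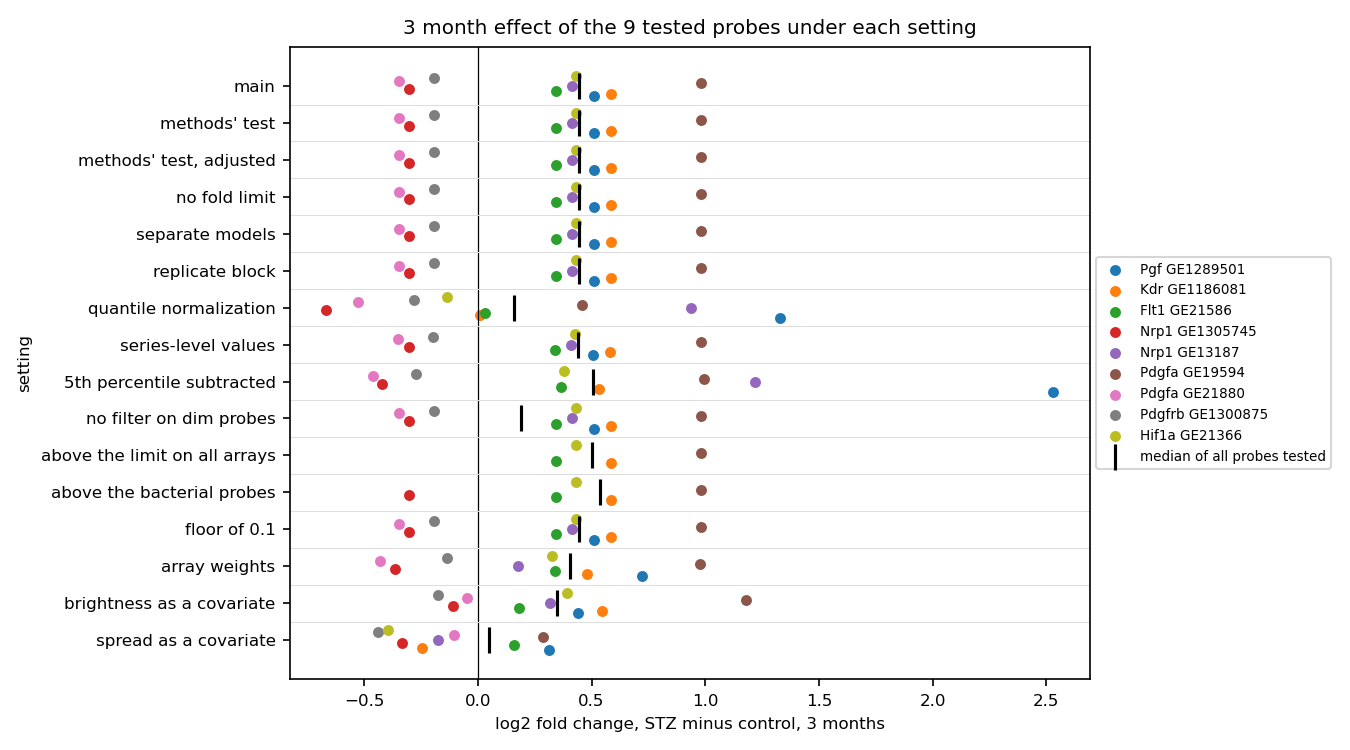
Log2 fold change at 3 months of the 9 tested probes (colored points) under the main setting and 15 alternatives (rows), with the median of all probes tested as a black line. The bright Pdgfa probe lies right of 0 in each row, while Kdr falls to 0.01 and Hif1a to -0.13 under quantile normalization.

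The calls depended on scaling for several members, and at 3 months the direction did for Hif1a. Quantile normalization, which gives all arrays the same distribution, left 2 of the 9 probes called at 3 months, Pgf as higher and Nrp1 GE1305745 as lower, against 31.5% of all tested probes. With array spread as a covariate 0 of the 9 were called, and with no adjustment that fit had 1934 of all probes at p under 0.05 and 0 called. Since spread went largely with the group at 3 months, that fit cannot decide whether a difference is present. The bright Pdgfa probe and the probes of Pgf and Flt1 were higher in STZ under all alternatives in which they were tested, and Pdgfrb GE1300875, Pdgfa GE21880 and Nrp1 GE1305745 lower.

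The other genes of the same pathways were read from 1 probe each, the brightest tested one. Of the 2813 tested genes with a symbol, the median change at 3 months was 0.50, with 1575 called as higher and 97 as lower, and 0 were called at 1 month. Of 8 further VEGF family genes, 5 had a named probe and 1 was tested. This was Flt4, the receptor for lymphatic growth factors, which lay between 0.177 and 0.726 (median 0.479) in 3M Control and between 0.657 and 0.989 (median 0.864) in 3M STZ. It rose by 0.99 (SE 0.24, limma adjusted p = 0.00204). All 12 arrays were under the bacterial percentile, and the probe was brighter at 1 month, from 1.32 to 2.81. Of 7 angiopoietin and Tie genes only Angptl2, an angiopoietin-like secreted protein, was tested, and it rose by 0.83 (SE 0.20, adjusted p = 0.00181). After quantile normalization Angptl2 was at 0.44 and not called, while Flt4 was at 1.86 and called. Pdgfc, the 1 tested of 5 PDGF genes, was at 0.40 (SE 0.32, adjusted p = 0.292). Its median was lower in 3M STZ (0.657) than in 3M Control (0.679), with 1 STZ array at 5.11, and without 3M STZ replicate 1 the difference was -0.10.

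In the oxygen-sensing machinery 3 of 6 tested genes were called higher and 0 lower, of 16 listed. Hif3a, a family member that can restrain the others, rose by 1.52 (SE 0.22, limma adjusted p = 6.4e-05). Egln3, a prolyl hydroxylase that marks HIF subunits for degradation, rose by 0.85 (SE 0.16, adjusted p = 4.3e-04), with all 12 arrays under the bacterial percentile. Arnt, the partner subunit of Hif1a, was at 0.31 (SE 0.16, adjusted p = 0.0870), and Siah2, a ubiquitin ligase for prolyl hydroxylases, at -0.19 (SE 0.17, adjusted p = 0.330). For Arnt too all 12 arrays were under the bacterial percentile. After quantile normalization 3 of the 6 were again called higher, with Arnt (0.84) in place of Vhl (-0.08).

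Of 43 genes known as HIF targets 25 were tested. Their median change was 0.47 against 0.50 over all genes, and the calls were 13 higher and 1 lower. After quantile normalization the median was -0.03, with calls for 5 as higher and 2 as lower. Over all 2813 genes that normalization gave a median of 0.17, with 767 called higher and 173 lower. Hmox1, which degrades heme and also answers oxidative stress, rose by 2.63 (SE 0.36, limma adjusted p = 4.0e-05), and Cp, the ferroxidase ceruloplasmin, by 1.63 (SE 0.23, adjusted p = 4.5e-05). Hmox1 exceeded the bacterial percentile on 5 of the 12 arrays at 3 months and Cp on 12. Pfkfb3, which drives glycolysis and endothelial sprouting, fell by 0.62 (SE 0.20, adjusted p = 0.0145), exceeding that percentile on 1 of the 12. One 3M Control array stood at 2.82 against a control median of 0.970, and without 3M Control replicate 2 the difference was -0.35 and still called. Bnip3, a mitophagy receptor, was at -0.77 (SE 0.67, adjusted p = 0.323).

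Of 34 other angiogenic factors and receptors 10 were tested, and 4 were called higher, with a median of 0.38. Aplnr, the apelin receptor, rose by 0.99 (SE 0.32, limma adjusted p = 0.0138), from between 0.0725 and 0.343 in 3M Control to between 0.264 and 0.483 in 3M STZ. Each of these 12 values was below the limit for testing, and the probe was tested through its 1 month values, from 0.635 to 2.82. Met, the receptor for hepatocyte growth factor, rose by 0.85 (SE 0.17, limma adjusted p = 5.1e-04), with all 12 arrays under the bacterial percentile. Igf1r was at 0.14 (SE 0.18, adjusted p = 0.520) and the matrix protein gene Ccn1 at 0.18 (SE 0.14, adjusted p = 0.297).

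Among inhibitors of angiogenesis 4 of 5 tested genes were called higher, of 16 listed, with a median of 1.48. Timp1, a metalloproteinase inhibitor, rose by 2.80 (SE 0.54, limma adjusted p = 4.9e-04). It lay between 1.95 and 2.95 (median 2.53) in 3M Control and between 6.06 and 287 (median 10.9) in 3M STZ, where 1 array set the highest value, and without 3M STZ replicate 1 the change was 1.99. Serpinf1, which encodes pigment epithelium-derived factor, rose by 1.69 (SE 0.34, limma adjusted p = 6.2e-04). The chemokine Cxcl10 rose by 0.49 (SE 0.15, adjusted p = 0.0108) with all 12 arrays under the bacterial percentile. Adamts1 was at 0.28 (SE 0.34, adjusted p = 0.479), with all 12 arrays between 0.0106 and 0.0830, near the floor of 0.01. It was tested through its 1 month values, from 3.85 to 6.99, so its 3 month difference cannot be read as a measured change. After quantile normalization 4 of the 5 were again called higher, with a median of 1.31, beside 767 of all 2813 genes and their median of 0.17. The earlier results of these data and the study's choice of genes included Timp1 and Serpinf1, so their direction is not independent evidence.

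**Figure D4:**
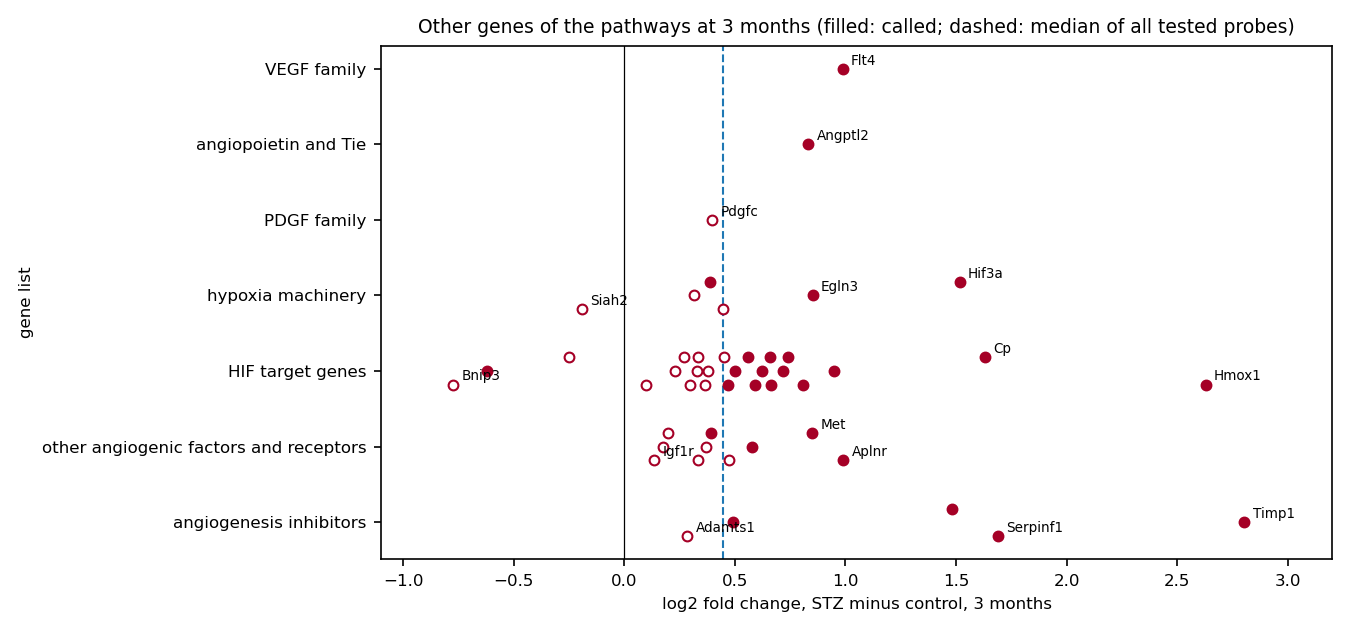
Log2 fold change at 3 months (STZ minus control) of the tested genes of 7 pathway lists, 1 point per gene, filled where called. The dashed line is the median of all tested probes at 0.44. Of the HIF target genes 13 are called right of 0 and 1 left of it, and of the 5 angiogenesis inhibitors 4 are called.

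In these bulk samples fewer cells of a type and less RNA per cell cannot be told apart. Of 19 endothelial markers 5 had a named probe and 4 were tested, of which 3 were called higher at 3 months, the median over the 4 being 0.55, and after quantile normalization 0 higher and 1 lower. Their summed scaled intensity ranged from 16.8 to 32.5 in 3M Control and from 29.4 to 34.9 in 3M STZ, and at 1 month from 30.0 to 39.6 in controls and from 27.1 to 38.1 in STZ. Defining endothelial markers such as Pecam1, Cdh5 and Vwf were not among the named probes. Of 8 tested pericyte and smooth muscle markers, of 13 listed, 2 were called higher (Cspg4 at 1.03 and Notch3 at 0.61) and 1 lower. The lower one was Vtn at -0.63, and at -0.38 without 3M Control replicate 2. It stayed called in 8 of the 12 fits without 1 array of the 3 month groups. Rgs5 was at -0.34 (adjusted p = 0.157). Vtn exceeded the bacterial percentile on 2 of the 12 arrays at 3 months, Rgs5 on 1, Cspg4 on 8 and Notch3 on 12. Notch3 was at -0.09 after quantile normalization, when 1 of the 8 markers was called higher and 1 lower. Their sum ranged from 19.0 to 29.4 in 3M Control, from 26.0 to 35.3 in 3M STZ, from 20.7 to 30.9 in 1M Control and from 22.2 to 27.6 in 1M STZ. The part of either cell type in the changes of Kdr, Flt1 and Pdgfrb was not tested.

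Markers of other cells moved at 3 months as well, when 1575 of all 2813 genes were called higher. Of 7 tested markers of astrocytes and reactive glia 6 were called higher, with a sum from 15.9 to 34.5 in 3M Control and from 45.8 to 64.9 in 3M STZ. The marker not called was Aldh1l1, at 0.25 (limma adjusted p = 0.0869). Of 4 lens genes 3 were called higher, with a sum from 46.7 to 108 in 3M Control and from 158 to 292 in 3M STZ. Cryab made the largest part of that sum, from 38.3 to 104 in 3M Control and from 129 to 177 in 3M STZ. After quantile normalization Cryab was at 0.17 and not called. Lim2 was not called in the main fit (0.43, limma adjusted p = 0.342). Of 4 microglia and leukocyte genes 3 were called higher, with a sum from 5.27 to 8.69 in 3M Control and from 8.57 to 13.4 in 3M STZ. The counts called higher in the other lists were 4 of 7 for Mueller glia, 2 of 5 for rods, 3 of 5 for ganglion cells, 4 of 6 for amacrine and bipolar cells, 1 of 3 for erythrocytes and 0 of 2 for pigment epithelium, and 0 were called lower. Quantile normalization left 6 higher for astrocytes and reactive glia, 3 for leukocytes, 2 for lens, 2 for Mueller glia and 1 for erythrocytes. It left 0 higher for rods, ganglion cells, amacrine and bipolar cells and pigment epithelium. Rods then had 1 called lower, as did amacrine and bipolar cells. At 1 month the sums of glia, lens and leukocyte genes overlapped between STZ and control. Their part in the changes of the members was not tested.

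The genes whose array-to-array pattern was most like that of each tested probe were found among 2812 named genes, by Pearson correlation over the 24 arrays after removal of group means. Such a correlation shares the brightness and spread of each array and is a description. Closest to Kdr was Ptma (0.94), to Hif1a Ran (0.95), to Flt1 Ccr9 (0.89), to the bright Pdgfa probe Gmfg (0.82), to Pdgfrb Spg7 (0.75) and to Pgf Aplnr (0.63). The 2 Nrp1 probes had different neighbors, Kpnb1 (0.79) for GE1305745 and Cdc42 (0.90) for GE13187. The bright probes of Kdr, Hif1a and Pdgfa correlated with array spread in the same way at 0.54, 0.53 and 0.52, and Flt1 GE21586 with array brightness at -0.56.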

How the data were processed

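Rat retinal RNA was measured on 24 CodeLink rat whole genome arrays. The authors deposited the spot intensity after local background subtraction and the same intensity normalized within the array, both on a linear scale, for 33911 probes of which 33849 were for rat. Here the background-subtracted intensity was divided by the median of the rat probes of its array, floored at 0.01 and transformed to log2. Rat probes were tested if they had at least 4 values in each group and a median above the 35th percentile over all probes, with limma 3.58.1 in R 4.3.3, in 1 model of 4 groups. With several probes per gene, each was reported, and a gene of a list was read from its tested probe of highest mean level. Symbols came from RefSeq accessions, which named 4675 probes. The array files name no genome build. Present calls of the scanner software were not used here. The model was tested on simulated data, where 168 of 200 probes given a 2-fold change at 3 months were called among 22025, with 13 false calls. Only those 200 probes were changed, while 54.1% of all tested probes were called at 3 months in the data. The count of false calls therefore does not carry over to the 3 month comparison.

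The members and gene lists were chosen with earlier results of these data known. All probes of the members are named, and from each pathway list the 2 highest and 2 lowest genes at 3 months. The pericyte markers Cspg4, Notch3, Vtn and Rgs5 were named after their values were seen. Differences between probes of 1 gene within arrays were computed after the values were seen and are not reported, since the dimmer probe of each pair exceeded the bacterial percentile on at most 3 of the 12 arrays at 3 months. The number of arrays and the signal over background limit precision, and array medians before scaling lay between 124 and 360. The alternatives are named in the closing section.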

Additional observations from a re-analysis of the deposited data

Results flagged for a closer look

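Single arrays stood apart from the other 5 of their group in 5 of the 52 groups of 6 arrays examined (13 probes in 4 groups), and chance alone flags about 1 group in 20. They were Hif1a on 1M Control replicate 5 (7.97), Nrp1 GE1305745 on 1M Control replicate 2 (1.39), Pdgfrb GE22248 on 3M Control replicate 2 (2.45), Kdr GE20147 on 3M Control replicate 2 (0.338) and Kdr GE20147 on 3M STZ replicate 1 (0.321), all as scaled intensity. The effect of diabetes differed between the time points for Pgf, by 0.673 on the log2 scale (limma adjusted p = 0.0394). For the dim Kdr probe GE20147 the effects were opposite, and their difference was -0.622 in the fit without the filter on dim probes (limma adjusted p = 0.0426), where 10.3% of probes were called.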

How the results depend on the processing

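The counts of called probes depended on the test and the scaling. Over all probes at 1 month (2 called) they were 262 by the methods' test, which does not assume equal variances, 360 with array weights, 4 with no filter on dim probes, 1 with a floor of 0.1 and 0 by the methods' test with adjustment, in separate models of the time points, after quantile normalization, with the 5th percentile subtracted and with filters above the limit or above the bacterial probes. Of the members 0 were called at 1 month in each of these.

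At 3 months (11911 of all probes and 4 of the members) there were 3722 and 1 by the methods' test, 1921 and 1 with its adjustment, 6948 and 2 after quantile normalization, 4058 and 1 with brightness as a covariate and 0 and 0 with spread as a covariate. Members called were also 2 in separate models and 2 with the 5th percentile subtracted. The 1 left by the methods' test and with brightness as a covariate was Pdgfa GE19594. For the difference between the time points (3414 of all probes and 1 of the members) there were 10325 and 3 with array weights, 1228 and 0 with brightness and 0 and 0 with spread as a covariate, and members called were 2 with no filter and 0 with either stricter filter, which removed Pgf.

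Some members turned direction. At 1 month array weights gave -0.0934 for Hif1a and -0.104 for Kdr. At 3 months Hif1a was at -0.134 after quantile normalization, and with spread as a covariate Hif1a was at -0.396, Nrp1 GE13187 at -0.176 and Kdr at -0.245. The difference between the time points turned after quantile normalization for Hif1a (-0.239), Pdgfa GE21880 (-0.284), Flt1 (-0.0867), Nrp1 GE1305745 (-0.366) and Kdr (-0.0885), with the 5th percentile subtracted for Pdgfa GE21880 (-0.0342) and Nrp1 GE1305745 (-0.0047), and for Pdgfrb with array weights (0.172) and brightness (0.00579). With spread as a covariate it was -0.561 for Hif1a, -0.00231 for Nrp1 GE13187, -0.402 for Kdr and -0.032 for Pdgfa GE19594. Spread went largely with the group at 3 months, so fits with it as a covariate cannot decide these directions. The cause was not tested.

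Without 1 array at a time, counts over all probes ranged from 1 to 5 at 1 month, from 8734 (without 3M Control replicate 2) to 14055 at 3 months and from 759 to 9230 for the difference between the time points. Members called ranged from 2 (without 3M Control replicate 2) to 5 at 3 months and from 0 to 1 for the difference. Hif1a at 1 month ranged from -0.0544 to 0.242, and the difference between the time points from -0.0405 to 0.246 for Nrp1 GE1305745, from -0.143 to 0.139 for Pdgfa GE21880 and from -0.117 to 0.0857 for Pdgfrb GE1300875.

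With the replicate number as a replicate block, 1, 11622 and 2496 of all probes and 0, 3 and 1 of the members were called at 1 month, at 3 months and for the difference. Kdr was the member lost (limma adjusted p = 0.0653). Arrays of the same number did not deviate together, with correlations from -0.238 to 0.252, so the numbers were not taken as pairs. No fold limit, the series-level values and a floor of 0.1 left the members' counts as they were. Members near the bacterial probes, Pgf and the dim probes above all, are limited by signal over background.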
